A study of Mus musculus with 31 samples.

Results

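Immediate early and injury response genes are switched on when a neuron is stimulated or its axon is damaged. Here 10 of them are described in RNA from ribosome pulldowns of mouse sensory ganglia and axon tissue, including controls without the switched-on tag. The genes were chosen by name: Fos, Fosb, Jun, Junb, Egr1, Atf3, Arc, Nr4a1, Ier2 and Sox11. Each symbol matched 1 of the 55536 Ensembl identifiers that both deposited count tables hold, through the GENCODE M21 annotation, so all 10 were found. The study purified ribosomes by translating ribosome affinity purification (TRAP), in which an antibody to GFP pulls down a GFP-tagged ribosomal protein L10a with the RNA bound to it. Cre mice were Nav1.8-Cre;L10a-eGFP-fl/fl, and control mice were L10a-eGFP-fl/fl, so every animal carried the floxed tag and only the Cre animals could switch it on. Cre was driven from the locus of the sodium channel Nav1.8 (Scn10a), which marks nociceptors, the neurons that sense pain, and all cells descended from a Nav1.8-expressing cell. Sciatic nerve gave the peripheral axons, lumbar dorsal root plus spinal cord the central axons, and the lumbar dorsal root ganglion (DRG) the cell bodies, called somas.

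The 31 libraries formed 8 groups. Central axons and a set of somas made up batch 1, while batch 2 had peripheral axons with a separate set of somas; both batches had Cre and control libraries. There were 4 libraries in every group except the peripheral axon control, which had 3. Batch and type of axon therefore cannot be told apart by a direct comparison, and each axon group was set against the somas of its own batch. No label names an injury, a stimulus, an age or a sex. The labels call the libraries biological replicates without saying whether each is 1 animal or a pool, so p-values measure the spread between these samples. In tissue of mixed cells, fewer cells of a type and less RNA per cell cannot be told apart.

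Immediate early genes are transcribed within minutes of a stimulus without need of new protein. Fos, Fosb, Jun and Junb encode subunits of AP-1, a dimeric transcription factor. Egr1 encodes a zinc finger factor, Nr4a1 an orphan nuclear receptor, Ier2 a nuclear protein, and Arc a protein that acts at synapses and whose mRNA travels into dendrites. Atf3, a factor that pairs with Jun, and Sox11, an HMG-box factor, are known in the DRG for their induction after axon injury and their part in regeneration. Schwann cells, fibroblasts and immune cells can express many of these genes too.

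Totals ran from 3.60 to 19.6 M (mega) counts per library, so that 3 counts, taken as the smallest detectable amount, were worth 0.153 to 0.833 CPM (the count scaled to a library of 1 M counts). RNA inputs were below 100 pg for axons and below 1 ng for somas, per the labels. Libraries held between 4934 and 16509 genes at 10 counts or more, and the lowest numbers were in control somas of batch 1. Scn10a, the gene at whose locus Cre sits, checked the tissue. It stood between 312 and 505 CPM in all 8 Cre somas, between 42.1 and 421 CPM in the 8 Cre axon libraries, and between 0 and 29.9 CPM in the 4 central axon controls. The 3 peripheral axon controls, at 0 to 127 CPM, overlapped the Cre axons, and control somas held 33.4 to 625 CPM, so libraries of mice without Cre also contained nociceptor RNA. Of 9 nociceptor markers, Scn10a among them, edgeR called none between Cre and control libraries, in either axon or either batch of somas. Of all genes, 0% to 4.42% were called there. The 9 had median log2 fold changes, Cre over control, of 5.13 in central axons, 0.73 in peripheral axons, -0.47 in batch 1 somas and 0.65 in batch 2 somas. The native Rpl10a gene was read in every Cre library, at 13.8 CPM or more, but its reads do not tell the tagged form from the native one.

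Per kilobase of exon, the mean level over all 31 libraries was 24.4 CPM for Ier2, 23.9 CPM for Jun and 17.5 CPM for Junb. Nr4a1 and Sox11 followed at 8.64 and 8.03 CPM per kilobase, Egr1 at 3.65, Fos at 2.41 and Atf3 at 1.85. Arc and Fosb were the lowest, at 0.79 and 0.10 CPM per kilobase. Jun, Nr4a1 and Sox11 had counts in all 31 libraries, while Fosb was at 0 in 23 of them, Arc in 15, Atf3 in 11 and Fos in 9. Fosb never passed the filter on low counts and was tested in no comparison. The authors' handling of strand is not given in the sources used here, so reads over the 7.28% of Jun exon bases that face Junos, and the 7.52% of Junb exon bases that face Prdx2, cannot be assigned to 1 strand.

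**Figure D1:**
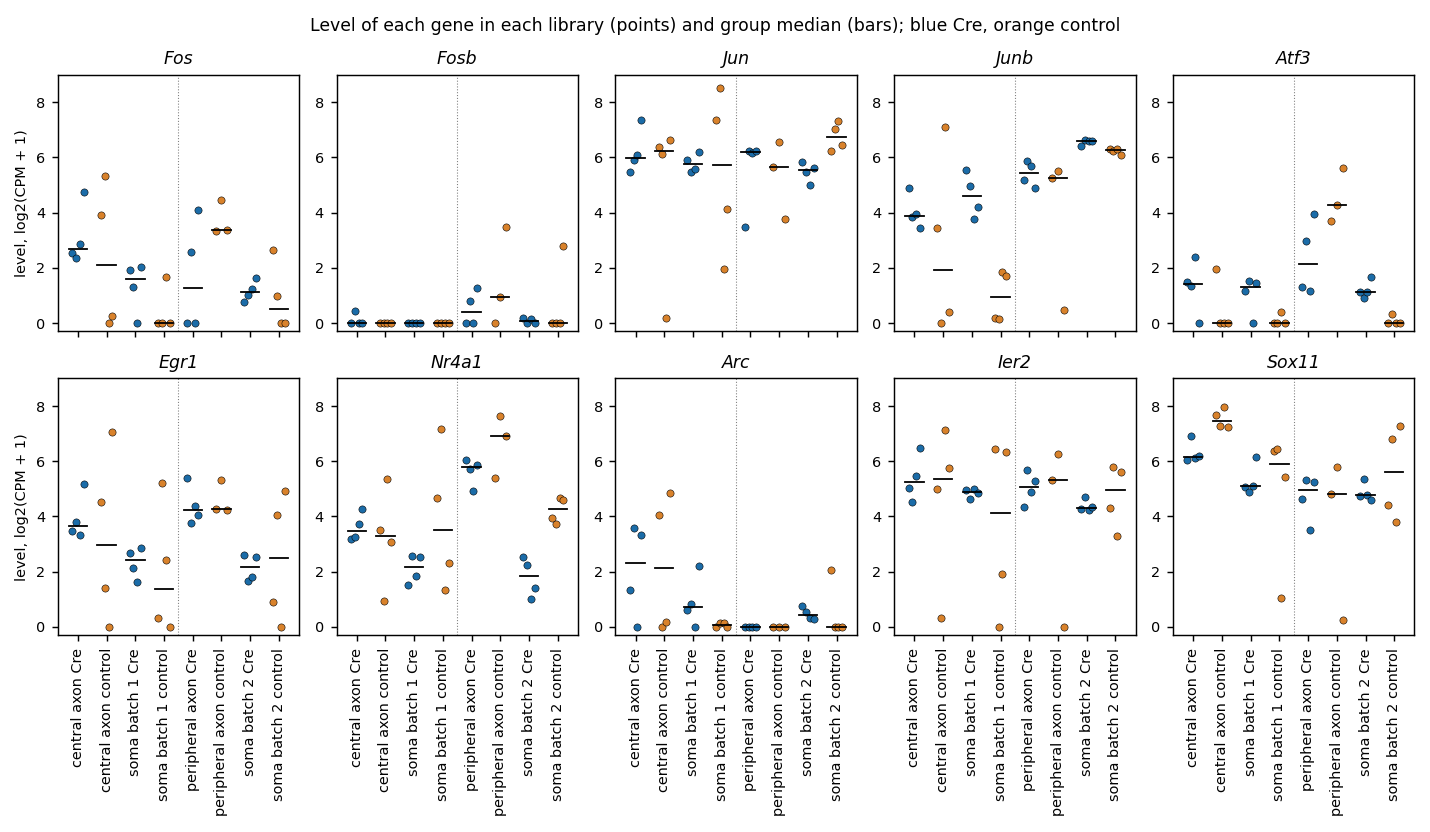
Level of each of the 10 genes as log2(CPM + 1) on the y axis in each library (points) of the 8 groups on the x axis, with Cre in blue, control in orange, bars at the median of the log2 values and a dotted line between batch 1 and batch 2. Nr4a1 lies between 29.5 and 65.4 CPM in the peripheral axon Cre libraries and between 1.02 and 4.74 CPM in the somas of that batch, Arc is at 0 in all 7 peripheral axon libraries, and the control groups spread widely for most genes.

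In the peripheral axon Cre libraries, Nr4a1 and Egr1 were higher and Junb was lower than in the somas of the same batch. Nr4a1 stood at 65.4, 52.0, 29.5 and 56.9 CPM in the 4 axon libraries and at 4.74, 3.79, 1.02 and 1.66 CPM in the 4 somas. The lowest axon library was thus far above the highest soma. The log2 fold change was 4.00 (SE 0.51, 4 against 4 libraries, adjusted p = 0.000200, edgeR's quasi-likelihood test with Benjamini-Hochberg adjustment over 15467 genes). Nr4a1 spans chr15:101254269-101274795 on the plus strand of GRCm38 and is protein coding.

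Egr1, the zinc finger factor, gave 41.3, 12.7, 19.8 and 15.8 CPM in the axons and 5.06, 2.18, 2.55 and 4.75 CPM in the somas. Its groups did not overlap either, and axon library 1 was the highest. Its log2 fold change was 2.40 (SE 0.53, edgeR adjusted p = 0.00582).

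Junb, the AP-1 subunit, went the other way. The axons gave 35.5, 58.1, 50.8 and 28.4 CPM and the somas 84.4, 97.3, 96.1 and 94.5 CPM. Every soma lay above every axon library, and the somas stood close together. Junb had a log2 fold change of -1.28 (SE 0.31, edgeR adjusted p = 0.00879).

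Thus 2 of the 8 genes tested were higher and 1 was lower, and the same 3 were the ones whose groups did not overlap. Of all 15467 genes tested, 18.7% were called higher in the axon, 12.5% were called lower, and 36.7% had groups that did not overlap, so these shares of the 10-gene set are near the background. The median log2 fold change was 1.18 over the 8 genes and -0.03 over all genes tested. With the 4 groups of batch 2 in 1 fit, the controls included, only Nr4a1 kept its call, and the adjusted p was 0.226 for Egr1 and 0.222 for Junb (edgeR). Over the 5 alternatives 1404 to 7221 of all genes were called, and the share in that fit alone is not given here. Nr4a1 kept its call in all 5 alternatives and all 8 fits that left out 1 library, with log2 fold changes from 3.70 to 4.29.

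**Figure D2:**
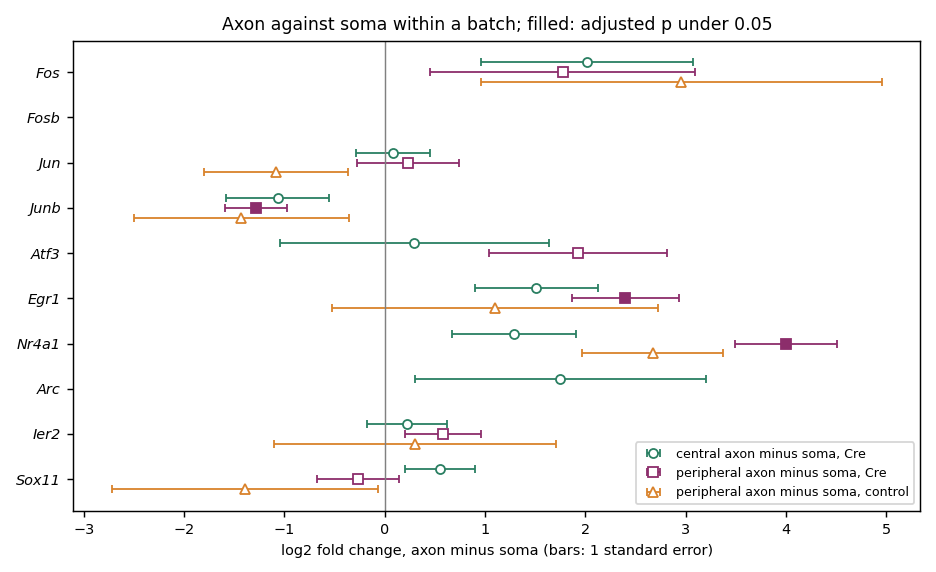
Log2 fold change of axon minus soma on the x axis for each gene on the y axis, with bars of 1 standard error and filled symbols for an adjusted p under 0.05; genes not tested, and Atf3 in the controls, whose somas are at most at 1 count, have no symbol. The filled symbols are Nr4a1 at 4.00, Egr1 at 2.40 and Junb at -1.28 in the peripheral axon.

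Nr4a1 and Junb were called in opposite directions, and their promoters are shown with that of Fos, an AP-1 gene that was not called. The cyclic AMP response element (CRE), the site of the activity-regulated factor CREB, is a textbook element of immediate early genes. The windows are the 250 bases before the RefSeq start site on GRCm38.p6, read 5′ to 3′ on the gene's strand. Capitals mark each match to the CRE core TGACG on either strand, where CGTCA is the reverse strand. Nr4a1 is at chr15:101266596-101266845 on the plus strand and holds 4 matches, Junb at chr8:84978749-84978998 on the minus strand holds 1, and Fos at chr12:85473640-85473889 on the plus strand holds 2.
Nr4a1: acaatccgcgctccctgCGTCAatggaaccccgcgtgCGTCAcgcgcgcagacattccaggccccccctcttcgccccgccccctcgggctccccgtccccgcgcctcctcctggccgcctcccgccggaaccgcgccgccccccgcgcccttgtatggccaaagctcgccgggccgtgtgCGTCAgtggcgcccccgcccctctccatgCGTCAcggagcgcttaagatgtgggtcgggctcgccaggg
Junb: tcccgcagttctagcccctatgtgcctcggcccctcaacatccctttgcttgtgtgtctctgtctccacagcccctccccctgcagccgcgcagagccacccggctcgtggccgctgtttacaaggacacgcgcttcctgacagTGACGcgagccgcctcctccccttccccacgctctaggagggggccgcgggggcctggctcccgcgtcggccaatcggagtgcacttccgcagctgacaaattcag
Fos: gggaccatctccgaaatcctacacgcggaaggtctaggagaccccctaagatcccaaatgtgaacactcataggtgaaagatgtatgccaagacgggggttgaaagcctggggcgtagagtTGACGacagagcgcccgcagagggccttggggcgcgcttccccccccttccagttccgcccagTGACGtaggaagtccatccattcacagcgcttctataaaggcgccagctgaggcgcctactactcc
The Nr4a1 window lies within the GENCODE gene, between exons, because longer transcripts start upstream of it; the other windows shown overlap no annotated gene.

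The promoter table held 7 of the 10 genes, without Arc, Egr1 and Ier2. The core TGACG was in 5 of the 7 windows: Nr4a1 (first bases at -233, -213, -69 and -40 from the start), Fos (-129 and -66), Junb (-106), Fosb (-60) and Atf3 (-7). It was in 17.8% of all 32851 windows of the same length. None of the 7 windows held the full element TGACGTCA (1.55% of all windows) or the AP-1 element TGANTCA (6.75%). None held the EGR site GCGTGGGCG (0.536%) or the CArG box of serum response factor (1.47%) either. Bases outside these windows, such as those farther upstream, were not searched. The lack of a match therefore does not show that a gene lacks the element. All motifs were searched on both strands, the core lies within the full one, and a match is a description of letters only.

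In the libraries without the tag, Nr4a1 was also at its highest level in peripheral axons, at 41.1, 200.1 and 119 CPM, against 14.3, 12.3, 24.2 and 23.3 CPM in the control somas. These groups did not overlap either. Their log2 fold change was 2.67 (SE 0.70), which did not pass (edgeR adjusted p = 0.199). DESeq2 called it, with adjusted p = 0.00836, and so did the fit with all 4 groups of batch 2 (edgeR adjusted p = 0.0247). Egr1 gave 18.5, 39.2 and 17.9 CPM in the axon controls and 0.885, 15.5, 0 and 29.7 CPM in the soma controls, which overlapped.

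Atf3, the injury-induced factor, had its highest group median in the same peripheral axon controls, at 11.9, 18.3 and 47.7 CPM. The 4 control somas held 0, 0.247, 0 and 0 CPM, at most 1 count each. Taken against the floor of 3 counts per library, Atf3 was at least 43.2-fold higher in the control axons, and at least 25.2-fold without axon control 4. The edgeR adjusted p was 0.178, while DESeq2 and the fit of all 4 groups called it (adjusted p = 2.54e-07 and 0.0101). In the Cre axons Atf3 was at 1.46, 6.84, 1.22 and 14.6 CPM, against 1.19, 0.900, 1.17 and 2.17 CPM in the Cre somas, so axon libraries 2 and 4 lay above the somas and the other axon libraries lay within their range. That log2 fold change was 1.93 (SE 0.89, edgeR adjusted p = 0.119), and it was called without axon library 1 (0.0406) or 3 (0.0475).

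Of the 8 genes tested between control axons and control somas of batch 2, edgeR called 0, against 0.0802% of all 13715 genes. At an unadjusted p under 0.05 there were 2, against 9.78% of all genes tested, and DESeq2 called the same number, Atf3 and Nr4a1, against 5.72% of the genes it adjusted. The fit with all 4 groups called these 2 as well, while the 5 alternatives called 11 to 835 of all genes. The test of the difference itself, axon minus soma in Cre minus that in control, called none of 8 (edgeR), against 0.00636% of 15717 genes. Atf3 was the 1 gene with an unadjusted p under 0.05 there (9.74% of all genes tested), with edgeR adjusted p = 0.293, and the 1 gene of the set called by DESeq2 (2.45% of all genes it adjusted). The Atf3 difference was negative, so its excess over soma was larger in the control libraries, whose somas held at most 1 count each. For Nr4a1 that difference was 1.17 (95% interval -0.47 to 2.80), for Egr1 1.16 (-2.02 to 4.34) and for Junb 0.04 (-1.98 to 2.05), on the log2 scale.

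Set against the peripheral axon controls directly, the Cre axons showed no called gene among the 8 tested by edgeR (0% of 13970 genes). None of the 8 had an unadjusted p under 0.05, and DESeq2 called none. Over all genes 514 had an unadjusted p under 0.05, and DESeq2 called 88. The log2 fold change of Cre over control was -1.23 for Nr4a1 (95% interval -2.33 to -0.14, edgeR unadjusted p = 0.0511, adjusted p = 0.9999). It was -0.17 for Egr1 (-1.76 to 1.43) and 0.69 for Junb (-1.41 to 2.80). The Nr4a1 interval, on a normal scale, is narrower than edgeR's test, so its leaving out 0 is not a difference at the 95% level. The Nr4a1 levels of both groups overlapped.

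Markers of other cells moved with the Nr4a1 and Egr1 difference. All 8 Schwann cell markers, all 6 fibroblast markers, all 6 endothelial markers and 4 of 5 skeletal muscle markers were called higher in the peripheral Cre axons than in somas. Summed, the Schwann cell markers ran from 10458 to 28357 CPM in the axons and from 440 to 646 CPM in the somas, and the fibroblast markers from 3816 to 6686 and from 173 to 364 CPM. Of the 8 macrophage and microglia markers 4 were called higher, with sums of 79.1 to 143 CPM against 18.0 to 33.4 CPM. None of the markers of these 5 cell types was at 0 in all axon libraries. Of the 9 nociceptor markers, 7 were called lower in the axons and none higher. The part of these cells in the result was not tested.

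**Figure D3:**
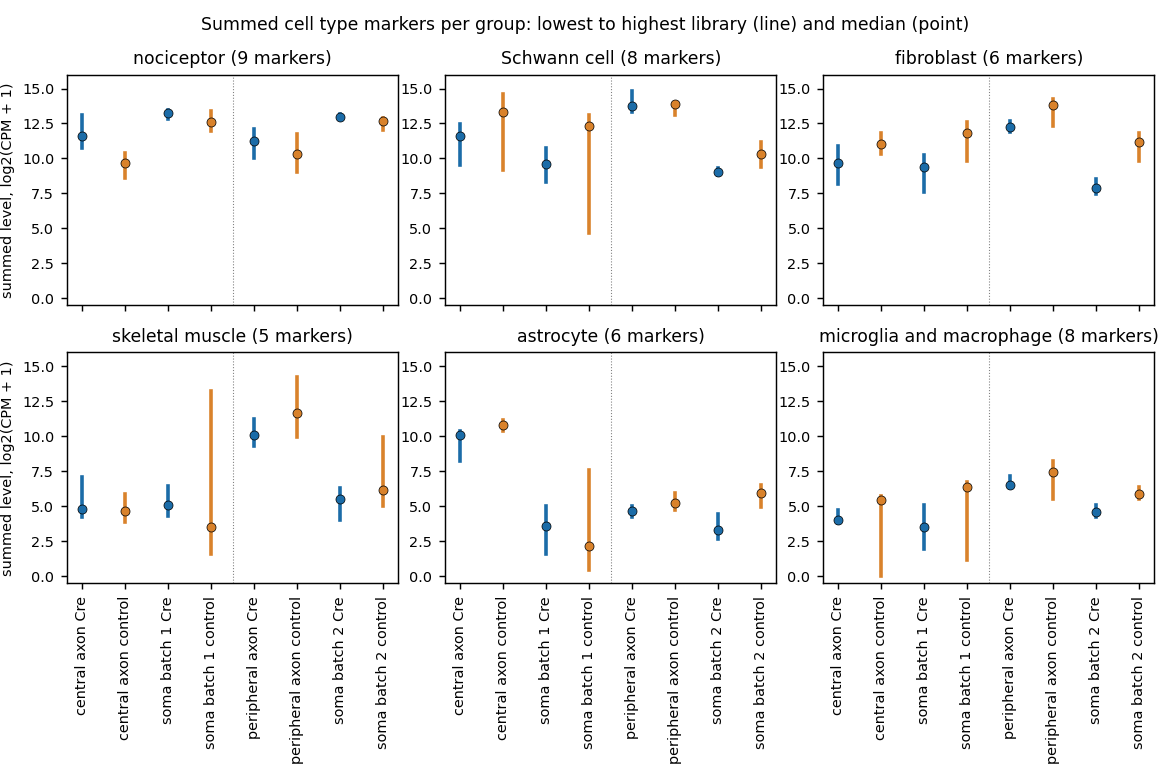
Summed level of each cell type's markers as log2(CPM + 1) on the y axis in the 8 groups on the x axis, with a line from the lowest to the highest library, a point at the median, Cre in blue and control in orange. The Schwann cell sum is 10458 to 28357 CPM in peripheral Cre axons, against 440 to 646 CPM in the somas of that batch.

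Among 38 other immediate early genes, 32 were tested in the peripheral Cre axons against somas, and edgeR called 8 higher and 2 lower. Egr2, the Egr1 relative that Schwann cells need to make myelin, gave the smallest adjusted p, at 140 ± 94.9 CPM (mean ± SD, n = 4) in axons and 1.34 ± 0.74 CPM in somas (log2 fold change 6.48, SE 0.61, adjusted p = 3.80e-05). Nr4a2, the Nr4a1 relative, was at 33.0 ± 8.57 and 3.38 ± 1.00 CPM (log2 fold change 3.08, adjusted p = 0.000282). Dusp6, a phosphatase that turns off the kinase ERK, was at 96.6 ± 34.6 and 20.1 ± 5.89 CPM (2.07, adjusted p = 0.00119). The other 5, named after their values were seen, were Egr3, Ier5, Fosl2, Klf10 and Klf4. Myc (-1.86, adjusted p = 0.00380) and Ier3 (-1.79, adjusted p = 0.0296) were lower. The list's median log2 fold change was 0.61, against -0.03 over all genes tested, of which 31.2% were called in either direction.

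**Figure D4:**
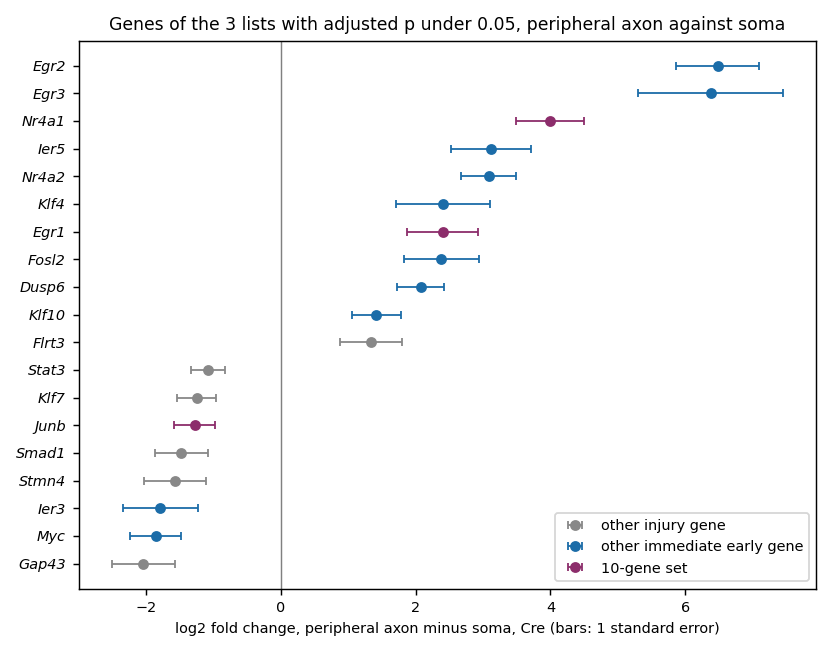
Log2 fold change of peripheral axon minus soma in Cre libraries on the x axis, with bars of 1 standard error, for the genes on the y axis called in the 10-gene set (3 of 8 tested), the other immediate early genes (10 of 32 tested) and the other injury genes (6 of 15 tested); genes not called are left out. Egr2 at 6.48 and Nr4a1 at 4.00 lie to the right, and Gap43 at -2.04 lies farthest to the left.

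In central axons no gene of the set was called against the somas of batch 1. Among the 9 tested by edgeR, against 13.7% of all 14480 genes, 1 had an unadjusted p under 0.05 (29.2% of all genes) and DESeq2 called 2, Egr1 and Nr4a1 (21.5% of all genes it adjusted). Egr1 stood at 10.2, 12.9, 9.04 and 35.5 CPM in the Cre axons and 5.39, 3.41, 2.07 and 6.22 CPM in the Cre somas. Axon library 4 was the highest, and the groups did not overlap. Egr1 had a log2 fold change of 1.51 (SE 0.61, edgeR adjusted p = 0.117, DESeq2 adjusted p = 0.0282).

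Nr4a1 was read at 8.02, 8.61, 12.1 and 18.1 CPM in the central axons and 1.86, 4.87, 2.59 and 4.76 CPM in their somas, again apart. Its log2 fold change was 1.29 (SE 0.62, edgeR adjusted p = 0.184, DESeq2 adjusted p = 0.0293). Fos gave 4.81, 4.13, 6.24 and 25.8 CPM against 2.80, 1.46, 0 and 3.04 CPM, a log2 fold change of 2.01 (SE 1.06, edgeR adjusted p = 0.227). Those 3 genes were the ones of the 9 whose groups did not overlap, against 25.2% of all genes tested. Junb overlapped, with 29.0, 13.2, 14.3 and 9.95 CPM against 45.8, 30.2, 12.7 and 17.5 CPM. Its log2 fold change of -1.07 (SE 0.52, edgeR adjusted p = 0.189) was called only when axon library 1 was left out (adjusted p = 0.0455, log2 fold change -1.69).

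Central axon libraries held markers of spinal cord cells. All 5 spinal neuron markers and 5 of 6 astrocyte markers were called higher than in somas, and the astrocyte sum was 296 to 1347 CPM in Cre axons and 2.0 to 32.0 CPM in Cre somas. Of the 9 nociceptor markers, 5 were called lower. The astrocyte sum in the central axon controls was 1329 to 2347 CPM. The part of these cells in the levels of Fos, Egr1, Nr4a1 and Arc was not tested.

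Nr4a1 differed between the central and the peripheral axon libraries, each taken over its somas. Central axon over its soma minus peripheral axon over its soma was -2.53 on the log2 scale (SE 0.71, 95% interval -3.93 to -1.13, edgeR adjusted p = 0.0245), so the excess over soma was larger in the peripheral axon. This was the 1 call among 9 genes tested, against 13.1% of all 16725 genes, while DESeq2 called 2, Nr4a1 and Arc, against 20% of all genes it adjusted. It was lost without soma library 8 of batch 2, where the adjusted p was 0.0619 and the difference -2.34. All of the other 15 fits that left out 1 library kept it, as did all 5 alternatives. Egr1 had a difference of -0.72 (-2.31 to 0.88) and Junb of 0.35 (-0.85 to 1.55), neither called. The type of axon, the batch and the tissue around the axon cannot be told apart in this contrast. In it, 5 of 8 Schwann cell, 4 of 6 fibroblast and 4 of 5 skeletal muscle markers were called lower, as was 1 of 8 macrophage and microglia markers. Called higher were 4 of 6 astrocyte, 2 of 5 spinal neuron and 2 of 7 general neuron markers. Of 4 satellite glia markers 1 was higher and 3 were lower, and none of 6 endothelial or 9 nociceptor markers was called. The part of these cells in the Nr4a1 contrast was not tested.

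Arc, the synaptic gene, was read in central axons and was at 0 in every peripheral one. The central Cre axons held 1.51, 11.1, 0 and 9.09 CPM and the central controls 15.8, 0, 0.123 and 27.7 CPM. All 4 peripheral Cre axons and all 3 peripheral controls had 0 counts, which allows up to 3 counts in each, while the Cre somas of batch 2 held 0.687, 0.450, 0.255 and 0.229 CPM. Arc was therefore not detected in peripheral axons at this depth and was read in the Cre somas of the same batch at no more than 11 counts each. The floor of 3 counts was 0.730, 0.199, 0.732 and 0.520 CPM in peripheral Cre axons 1 to 4. In libraries 1, 3 and 4 it lay above most of the soma levels, so a 0 there does not set axon apart from soma. Of the 4 control somas of that batch, library 5 held 3.15 CPM, which is 57 counts, and the others none. The contrast of both axons gave adjusted p = 0.0741 by edgeR. DESeq2 called it (0.0474), as did edgeR without central Cre axon library 3 (0.0435) and with the batch 1 replicate numbers as a block (0.0305). No fold is given, since the peripheral axons are at 0. The highest Arc levels of the series were in central controls 4 and 1, from mice without Cre.

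In somas the batches differed in Junb. The 4 Cre somas of batch 1 gave 45.8, 30.2, 12.7 and 17.5 CPM and those of batch 2 gave 84.4, 97.3, 96.1 and 94.5 CPM, with no overlap. The log2 fold change of batch 1 over batch 2 was -1.80 (SE 0.37, edgeR adjusted p = 0.00648), and it kept its call in all 4 alternatives and all 8 fits without 1 library, with adjusted p from 0.000118 to 0.0249. It was the 1 gene called of 8 tested, against 9.69% of 14899 genes. The label between these groups is the batch alone. The other 7 tested genes had log2 differences from -0.23 (Atf3) to 0.49 (Sox11 and Ier2), none called.

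Cre somas against control somas gave no called gene by edgeR in either batch. In batch 2, against 0% of 15280 genes (16.4% with an unadjusted p under 0.05, and 8.19% of those DESeq2 adjusted called by it), 4 of 8 tested genes had an unadjusted p under 0.05 and DESeq2 called 4: Jun, Junb, Atf3 and Nr4a1. The groups of these 4 did not overlap, against 11.9% of all genes tested. Jun stood at 55.4, 43.6, 31.3 and 47.8 CPM in Cre and at 74.0, 130, 158 and 86.1 CPM in control somas (log2 fold change -1.06, SE 0.31, edgeR adjusted p = 0.126, DESeq2 adjusted p = 0.0152). Nr4a1, at 1.02 to 4.74 CPM in Cre, was at 12.3 to 24.2 CPM in control (-2.48, SE 0.74, edgeR adjusted p = 0.128, DESeq2 adjusted p = 0.000264). Control somas were thus above Cre somas for both.

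Junb and Atf3 lay on the other side. Junb was at 84.4 to 97.3 CPM in Cre and 67.3 to 78.9 CPM in control somas of batch 2 (log2 fold change 0.60, SE 0.26, edgeR adjusted p = 0.281). Atf3 was at 0.900 to 2.17 CPM in Cre and at most at 1 count in each control, which against the floor of 3 counts made it at least 2.26-fold higher in Cre (edgeR adjusted p = 0.0982, DESeq2 adjusted p = 0.00259). Without control soma library 5, edgeR called Jun (0.0308) and Atf3 (0.0462), 2 of 8 tested, and 11.7% of all genes (1826), against 0% with it. Fibroblast markers summed to 173 to 364 CPM in these Cre somas and 907 to 3656 CPM in the controls, and Schwann cell markers to 440 to 646 and 665 to 2282 CPM. The part of these cells in the soma values was not tested.

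In batch 1 somas none of 7 tested genes was called by edgeR, against 4.42% of 11667 genes; 1 had an unadjusted p under 0.05 (15% of all genes), and DESeq2 called 1 (13.6% of all genes it adjusted). That was Nr4a1, at 1.86 to 4.87 CPM in Cre and 24.4, 142, 1.51 and 4.01 CPM in control somas, which overlapped (log2 fold change -4.17, SE 1.70, edgeR adjusted p = 0.281). Control soma 3 had a scaling factor of 0.0547, far from the others, and the fits without it called none of the set either. Junb was the 1 tested gene whose groups did not overlap, against 28.4% of all genes. It stood at 12.7 to 45.8 CPM in Cre and 0.117 to 2.59 CPM in control somas, with a log2 fold change of 0.50 (SE 1.95). Fos had a log2 fold change of -3.06 (SE 2.50), though its mean CPM, taken without scaling factors, was 1.83 in Cre and 0.539 in control somas. The controls of this group were uneven gene by gene: Ier2 stood at 85.0, 0, 2.80 and 79.0 CPM and Jun at 163, 363, 2.91 and 16.4 CPM.

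Sox11, the regeneration factor, was the 1 gene whose Cre and control central axons did not overlap, against 8.11% of all genes tested. It stood at 64.8, 121, 68.9 and 72.5 CPM in Cre and at 202, 155, 250.3 and 149 CPM in control axons. Every control was above every Cre library. The log2 fold change was -1.17 (SE 0.39, unadjusted p = 0.0122, edgeR adjusted p = 0.605), which did not pass. Among the 9 genes tested, edgeR called none, against 0.0141% of 14189 genes. At an unadjusted p under 0.05 there was 1, against 4.82% of all genes, and DESeq2 called none. In Cre somas of batch 1 Sox11 was at 32.9, 28.7, 33.5 and 70.5 CPM, so that soma library 4 reached into the axon range. In batch 2 the Cre axons at 24.1, 39.4, 10.5 and 36.9 CPM overlapped the Cre somas at 25.7, 40.0, 26.8 and 23.2 CPM.

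The other comparisons of batch 1 held no call. Control central axons against control somas gave none of 6 tested by edgeR (0% of 9202 genes, 1138 with an unadjusted p under 0.05 and 796 called by DESeq2), none with an unadjusted p under 0.05 and none by DESeq2. With all 4 groups in 1 fit, 1 gene of 9 tested was called there, Arc. Over the 6 alternatives of that comparison 0 to 3855 of all genes were called, and the share in that fit alone is not given here. The difference of axon over soma between Cre and control gave none of 9 by edgeR (0% of 15355 genes, 3133 with an unadjusted p under 0.05 and 555 called by DESeq2), none with an unadjusted p under 0.05 and none by DESeq2. Intervals were wide: for Nr4a1 the difference was 3.57 on the log2 scale (95% interval -0.46 to 7.61).

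Fos and Fosb were patchy between libraries of 1 group. Fos gave 0, 4.91, 0 and 16 CPM in peripheral Cre axons, 9.02, 21.1 and 9.23 CPM in their controls, and 0.687, 1.03, 1.32 and 2.12 CPM in the Cre somas. In the central controls it was at 14.1, 39.5, 0 and 0.205 CPM. Some libraries of these axon groups thus held no Fos count while others of the same group were among the highest. Fosb reached 10.2 CPM in peripheral control 4, 5.98 CPM in control soma 8 of batch 2 and 1.39 CPM in peripheral Cre axon 4, and was at or below 0.925 CPM in all other libraries.

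Jun and Ier2, the most abundant of the set per kilobase, were called in none of the 12 comparisons by edgeR's fits as reported. Jun stood at 43.3, 58.3, 67.2 and 163 CPM in central Cre axons and 10.2, 74.3, 70.8 and 74.7 CPM in peripheral ones, where library 1 lay far below the other three. Against its somas the log2 fold change of Jun was 0.08 in central axons (95% interval -0.65 to 0.81) and 0.23 in peripheral axons (-0.76 to 1.22). Ier2 gave 31.5, 22.1, 43.3 and 88.1 CPM in central and 19.2, 51.0, 28.3 and 37.8 CPM in peripheral Cre axons, with differences from soma of 0.22 (-0.55 to 1.00) and 0.58 (-0.16 to 1.32). By median level, Ier2 was highest in central axon controls and lowest in Cre somas of batch 2, but each group overlapped the next in that order. For Junb, by contrast, the Cre somas of batch 2 stood apart from the control somas of that batch, and those from the peripheral Cre axons, with 93.1 ± 5.89, 74.6 ± 5.34 and 43.2 ± 13.6 CPM (mean ± SD, n = 4 each).

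Some libraries held the highest level of their group for several genes. Central Cre axon 4 was highest for 5 of the 10 genes and Cre soma 5 of batch 2 also for 5 of 10. In batch 1, Cre soma 4 and control soma a were each highest for 5 of 9. Peripheral control 2 was highest for 7 of 9, and peripheral Cre axon 4 and central control 3 each for 4 of 9. In groups of 3 or 4 libraries, 1 library has to lead for each gene, and the share over all genes was not computed.

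The genes whose levels over the 31 libraries were most like each member's, by Pearson's r of log2(CPM + 1) among 11842 genes with a mean of at least 5 CPM, were Bicc1 and Matn2 for Nr4a1 (r = 0.86 each) and Dnaja4 and Nol3 for Junb (0.94 and 0.89). Sipa1l2 and Selenon were most like Egr1 (0.85 and 0.84), P4ha2 and Itgb5 most like Fos (0.89 and 0.83), and Rapgef5 and Scg3 most like Jun (0.87 and 0.84). Ak6 and Vars2 came first for Ier2 (0.84 and 0.83), and Lsm11 and Cacna1a for Sox11 (0.87 and 0.85). Within batch 1 and batch 2 alone, r was 0.78 and 0.90 for Nr4a1 with Bicc1 and 0.93 and 0.86 for Junb with Dnaja4. The libraries share groups, depth and gene dropout, so these values describe the tables. Fosb, Atf3 and Arc were under the minimum level.

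Of 25 other injury and regeneration genes, 24 matched 1 identifier each. In central Cre axons against somas, 18 were tested and 3 were higher and 3 lower, against 13.7% of all genes called in either direction. Npy, a neuropeptide induced in injured sensory neurons, was at 43.3 to 54.3 CPM in axons and at 0 in all 4 somas, at least 151-fold higher (edgeR adjusted p = 3.73e-05). Ecel1, a protease induced by nerve injury, and Cckbr, a receptor for cholecystokinin, were the others higher, with adjusted p = 0.000379 and 0.00672. Atf4 (log2 fold change -1.71), Hspb1 (-1.98) and Gal (-1.62) were lower. Spinal cord neurons express Npy, and all 5 spinal neuron markers were called higher in the same libraries. Their part was not tested.

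In peripheral Cre axons, 15 of the injury genes were tested, with 1 higher and 5 lower. Flrt3, an adhesion protein, was higher (log2 fold change 1.34, edgeR adjusted p = 0.0453). Gap43, the growth cone protein, was at 813 ± 411 CPM in axons and 2965 ± 633 CPM in somas (n = 4 each, log2 fold change -2.04, adjusted p = 0.00663). Stat3 (-1.08) and Klf7 (-1.25), factors of the regeneration program, were lower too, and Smad1 and Stmn4, named after their values were seen, completed the 5. Over all genes tested in this comparison, 31.2% were called in either direction. The list's median log2 fold change was -0.80 in peripheral and -0.73 in central axons, against -0.03 and 0.05 over all genes tested. In peripheral axons all 7 general neuron markers and 7 of 9 nociceptor markers were called lower too, with medians of -1.69 and -1.73. In central axons 1 of 7 and 5 of 9 were, with medians of -0.81 and -1.57. The part of neuron content in the injury gene values was not tested.

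Between both axons, each over its soma, Myc was higher in central (2.21 on the log2 scale, edgeR adjusted p = 0.00976) and Egr2 (-5.85, adjusted p = 0.0140) and Fosl2 (-3.17, adjusted p = 0.0376) were lower among 35 other immediate early genes tested, against 13.1% of all genes called in either direction. Of 19 injury genes tested, Ecel1, Npy and Stmn4 were higher and Atf4 lower in that contrast. Between Cre and control libraries, calls in these lists came only in batch 1 somas, among 27 tested, against 4.42% of all genes. Csrnp1 was higher there (at least 9.49-fold, with all controls at 0, edgeR adjusted p = 0.0107) and Ier5 lower (-6.74, edgeR adjusted p = 0.0401). That fit holds control soma 3, with its scaling factor of 0.0547. It called 516 of all genes, and 0 to 3094 when 1 library was left out. Whether the Csrnp1 and Ier5 calls hold in those fits was not tested.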

How the data were processed

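Per the labels, RNA from the pulldown was amplified with the SMART-Seq v4 kit. For each batch the authors deposited a table of unnormalized counts, with genes in rows and libraries in columns. Per the submitters' processing notes, STAR 2.7.2b and the build mm10 were used; the counting program and its use of strand are not given in the sources used here. All 55536 identifiers match GENCODE M21. In batch 1, 2 control soma columns share a header; they held different counts and are called replicates a and b. No column was left out.

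Counts were tested with edgeR 4.0.16 (filterByExpr, TMM, quasi-likelihood test, R 4.3.3) in 12 comparisons, each fitted on its own groups, with Benjamini-Hochberg adjustment over all genes tested and calls at an adjusted p under 0.05. Each standard error (SE) was worked back from the log2 fold change and the F statistic of edgeR's test, so it is approximate, above all for genes near 0 counts. Intervals are the estimate and this SE on a normal scale, at 95%. With so few libraries they are narrower than edgeR's test, so calls rest on the test alone. CPM is the count over the library total, without TMM. A library at 0 allows up to 3 counts, which covers counting error only, since reads without molecular identifiers are not independent molecules. Alternatives were DESeq2 1.42.0, other scaling, filter and grouping, and leaving out each library. The scripts were tested on simulated data.

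The 10 genes, the 2 lists of other genes and the cell type markers were chosen with earlier results of these data known. From each list, up to 3 called genes per direction with the smallest adjusted p are named. Same-numbered libraries did not deviate together throughout, so the numbers were not taken as pairs.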

Additional observations from a re-analysis of the deposited data

Results flagged for a closer look

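Of 62 sets of 4 libraries examined, 14 held 1 library far from the others by Dixon's ratio of gap to range. The threshold flags about 1 in 20 sets of normally distributed values. Skewed CPM levels with many zeros are not such values, so 1 in 20 is not their rate by chance and no excess is read from the 14. In 5 of the 14 the other 3 libraries were at 0, so the gap is the whole range. Among Cre libraries, central axon 4 stood apart for Fos at 25.8 CPM (others 4.13 to 6.24 CPM) and for Egr1 at 35.5 CPM (others 9.04 to 12.9 CPM), and central axon 2 for Sox11 at 121 CPM and for Fosb at 0.359 CPM, which is 4 counts. Cre soma 4 of batch 1 stood apart for Sox11 at 70.5 CPM (others 28.7 to 33.5 CPM). Peripheral Cre axon 1 was low for Jun, at 10.2 CPM (others 70.8 to 74.7 CPM).

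Among controls, central axon 3 stood apart for Junb at 138 CPM, central axon 4 for Egr1 at 132 CPM and central axon 1 for Atf3 at 2.91 CPM. Control soma a of batch 1 stood apart for Egr1 at 36.1 CPM and for Nr4a1 at 142 CPM, and control soma 3 for Fos at 2.16 CPM. In batch 2, control soma 8 was the 1 soma control with Fosb, at 5.98 CPM, and control soma 5 the 1 with Arc, at 3.15 CPM.

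The Nr4a1 contrast of central minus peripheral axon, each over its soma, was -2.53 on the log2 scale and was called by edgeR's test of the difference itself. The call was lost without Cre soma 8 of batch 2 (edgeR adjusted p = 0.0619). The type of axon, the batch and the tissue around the axon cannot be told apart in it.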

How the results depend on the processing

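Limits: axon inputs were very small, control libraries were uneven, and control somas of batch 1 held few genes, so at these inputs a gene at 0 in 1 library of a group cannot be read as absent. No called value changed sign. Of 97 fold changes of the set, 36 changed sign under at least 1 setting while called neither as reported nor there. The cause of each shift below was not tested. DESeq2 called 1 gene of the 10 between Cre and control somas of batch 1, 4 in batch 2, 2 between central Cre axons and somas, 2 between peripheral control axons and somas, 1 for the difference of axon over soma between Cre and control in batch 2, and 2 for central minus peripheral axon. With all 4 groups of a batch in 1 fit, 1 gene was called between peripheral Cre axons and somas, 1 between central control axons and somas and 2 between peripheral control axons and somas. Leaving out 1 library gave 0 to 2 calls in batch 2 somas, 0 to 1 between central Cre axons and somas, 3 to 4 between peripheral Cre axons and somas and 0 to 2 for central minus peripheral axon; elsewhere the count stayed as reported. Counts over all genes moved more: Cre against control called 2 genes in central axons (1 to 437 over the alternatives), 516 in batch 1 somas (0 to 2244) and 0 in batch 2 somas (0 to 1527), axon against soma called 1990 in central (15 to 3752) and 4818 in peripheral Cre axons (1404 to 7221), and central minus peripheral axon 2187 (2087 to 3619). Batch 1 against batch 2 somas called 1444 (1414 to 2297), control axons against somas 0 in central (0 to 3855) and 11 in peripheral (11 to 835), peripheral Cre against control axons 0 (0 to 88), and the differences between Cre and control 0 in batch 1 (0 to 555) and 1 in batch 2 (0 to 443). With the replicate block, 0 genes of the set were called in each of 7 comparisons, as without it; same-numbered libraries correlated in their deviations at -0.15 to 0.25, and in central Cre axons against somas 3 of 4 correlated best with their own number. After the data were seen, 2 further fits with a replicate block were added. Cre and control libraries of 1 tissue that share a number gave 0 calls of the set for the difference in batch 2. The numbers shared by central axons and batch 1 somas gave 2 calls, Nr4a1 and Arc, for central minus peripheral axon. No paired analysis was possible for the other 3 comparisons because their groups share no replicate numbers.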
